A study of Mus musculus with 60 samples.

Results

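Apolipoproteins are the protein parts of the particles that carry lipid in blood. Apob forms the backbone of very low density lipoprotein, Apoa1 and Apoa2 are the main proteins of high density lipoprotein, and the small C apolipoproteins and Apoa5 set how fast triglyceride is removed from particles. Most are made by hepatocytes, whereas Apoe and Apoc1 are also made by macrophages, Kupffer cells among them. Apoa4, which is made by enterocytes and in rodents by hepatocytes too, is known to rise in the liver with lipid loading and is a known target of the liver transcription factor CREB3L3. The 10 apolipoprotein genes described here are Apoa4, Apoa1, Apoa2, Apoa5, Apob, Apoc1, Apoc2, Apoc3, Apoe and Apoh, taken by symbol from a table of 24411 genes. Apoa4 was chosen on its measured counts in these same libraries, so its values are given as a description with no test, and the other 9 were chosen as the genes to set beside it.

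The study profiled Kupffer cells, the macrophages that line the sinusoids of the liver, from 15 C57BL/6J mice of 8 weeks of age, labelled male. The mice formed 3 groups of 5, and the mouse is the replicate. Wild-type (WT) mice were given corn oil, WT mice were given CCl4 (carbon tetrachloride, a toxin that hepatocytes activate), and Trem1-deficient mice, which lack a receptor that amplifies myeloid inflammation, were given CCl4. The CCl4 dose was 2 µl per g of body weight as a 1:4 dilution in the same oil, and cells were taken at 12 h, so all groups share the oil vehicle and no Trem1-deficient mouse was given oil alone. Cells were taken from collagenase-digested liver by removing hepatocytes at low speed, then CD11b-positive cells, and then collecting F4/80-positive cells on beads; the labels do not say how Trem1 was disrupted or whether the mice were littermates.

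Total gene counts ranged from 812320 to 2593004 per library. Trem1 itself had 2 to 25 counts in the Trem1-deficient libraries, 35 to 100 in the oil libraries and 167 to 578 in the WT CCl4 libraries. Kupffer cell markers were present in all groups (15 of 15 genes), but their summed level was 5728 to 22742 CPM (a gene's counts as a share of its library, scaled to 1e+06 and adjusted by TMM, the trimmed mean of M values) in WT CCl4 mice against 35771 to 70173 in oil and 50223 to 61569 in Trem1-deficient mice. The monocyte marker sum was 574 to 1257, 2702 to 5219 and 735 to 1560 CPM in oil, WT CCl4 and Trem1-deficient mice, and the neutrophil sum 228 to 1739, 1323 to 12365 and 396 to 3179. Transcripts of hepatocytes were also present: the sum of 20 hepatocyte markers, none an apolipoprotein, was 3677 to 17940 CPM in oil, 12742 to 41954 in WT CCl4 and 1747 to 15981 in Trem1-deficient mice. More hepatocytes or fragments in a preparation and more RNA per hepatocyte cannot be told apart in such bulk samples. The labels' index numbers fall into 2 series: series 1 holds Trem1-deficient mice 1 and 2 with all 5 oil mice, and series 2 holds Trem1-deficient mice 3 to 5 with all 5 WT CCl4 mice. Series 1 libraries had 72 to 1552 Xist counts and 0 to 7 counts of Y-linked genes, and series 2 libraries had 1 to 31 and 134 to 425, although every mouse is labelled male. The index series and the sex that these counts point to therefore cannot be told apart. Oil libraries had 72 to 755 Xist and 0 Y-linked counts, and WT CCl4 libraries 2 to 17 and 135 to 358. These 2 groups thus differ in that sex as well as in treatment. For WT CCl4 against oil, the index series and the treatment can be told apart through the Trem1-deficient mice alone, so fits with index series as a term are given for each gene or list called below.

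Apoa4, Apoc3, Apoa1 and Apoa5 lie side by side on mouse chromosome 9 within 43.34 kb (GRCm38, GENCODE M21). Apoa1 is at 46228580 to 46230466 on the plus strand, Apoc3 at 46232933 to 46235636 on the minus strand, Apoa4 at 46240696 to 46243459 on the plus strand and Apoa5 at 46268633 to 46271919 on the plus strand. Apoe (19696109 to 19699188) and Apoc1 (19689481 to 19692660) are neighbours on the minus strand of chromosome 7. The bases just before Apoa4 and before its neighbour Apoa1 are shown because these 2 genes of 1 cluster stood 54.2 and 1.38 times above oil in mean CPM in Trem1-deficient CCl4 mice, and those of Apoe because it fell in WT CCl4 mice. They are the part of each RefSeq promoter window (GRCm38.p6) that lies before both the RefSeq and the GENCODE start, at chr9:46240594-46240695 (plus strand), chr9:46228380-46228579 (plus strand) and chr7:19699189-19699438 (minus strand), and capitals mark the sequence CAAAGTTCA, 1 of the 2 spellings of the HNF4 type of site that were searched.
Apoa4: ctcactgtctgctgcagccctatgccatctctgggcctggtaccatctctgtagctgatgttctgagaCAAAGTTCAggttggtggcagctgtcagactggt
Apoa1: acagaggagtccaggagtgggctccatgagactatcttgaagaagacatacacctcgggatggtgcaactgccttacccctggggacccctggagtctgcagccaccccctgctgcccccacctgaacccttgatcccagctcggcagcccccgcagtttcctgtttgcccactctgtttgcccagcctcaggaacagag
Apoe: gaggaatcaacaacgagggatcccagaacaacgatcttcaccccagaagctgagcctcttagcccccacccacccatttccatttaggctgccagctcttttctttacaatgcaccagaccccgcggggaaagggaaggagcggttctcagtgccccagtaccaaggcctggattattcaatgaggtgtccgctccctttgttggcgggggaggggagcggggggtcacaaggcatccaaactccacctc

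Of the 10 genes, 8 had a window in the RefSeq table (12 windows, 250 bases before to 50 after a start). Apoc1 and Apoc3, the nearest neighbour of Apoa4, had none and were not searched. CAAAGTTCA or CAAAGTCCA, on either strand, was found in 1 of the 12 windows, that of Apoa4, at -182 to -174 from its RefSeq start, and in 0.861% of all 32851 windows. TGACG, the core of the site that CREB-type factors bind, was found on either strand in a window of Apoa2 and in that of Apoc2, and in 20.8% of all windows. These are matches of letters and say nothing of binding, and other spellings of such sites were not searched in any window.

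**Figure D1:**
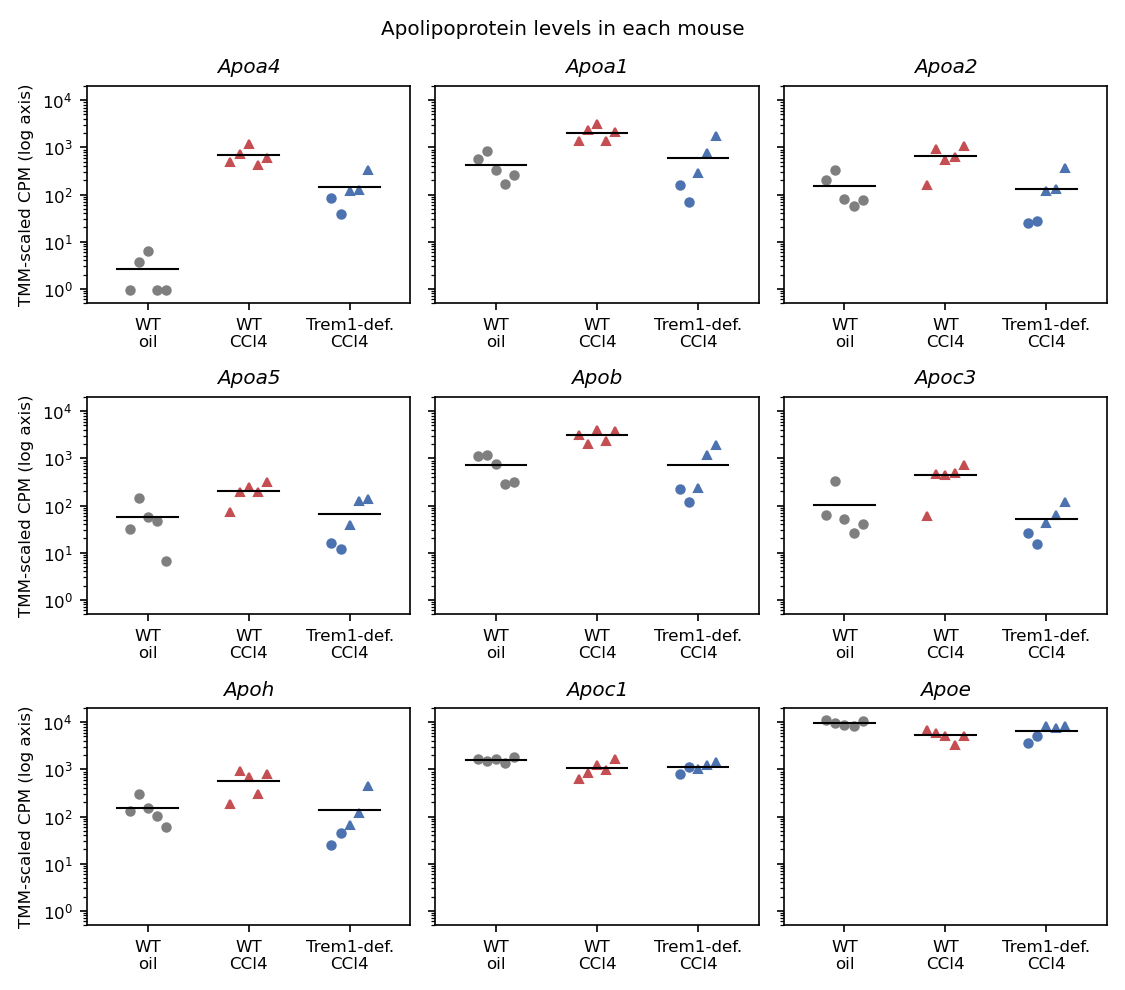
TMM-scaled CPM of 9 apolipoprotein genes in each of the 15 mice (log axis), by group; circles are libraries of index series 1, triangles those of series 2, and black lines are group means. Apoa4 lies at 0.939 to 6.43 CPM in the oil mice and at 38.95 CPM or more in each mouse given CCl4, while the oil and Trem1-deficient ranges of the other 8 genes overlap.

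Apoa4 was near the limit of counting in oil-treated mice and abundant after CCl4. The oil mice 1 to 5 had 1, 3, 9, 1 and 2 counts, where a count of 0 would allow up to 3, the WT CCl4 mice had 742, 719, 1260, 726 and 433, and the Trem1-deficient CCl4 mice had 258, 115, 278, 156 and 570. Each mouse given CCl4 had more counts than each oil mouse, while the counts of Trem1-deficient mouse 5 exceeded those of WT CCl4 mouse 5. In TMM-scaled CPM no group overlapped another, with 0.939 to 6.43 in oil, 416 to 1203 in WT CCl4 and 38.95 to 334 in Trem1-deficient mice. The means were 2.61 ± 2.46 (SD, n = 5) in oil, 687 ± 311 (SD, n = 5) in WT CCl4 and 141 ± 113 (SD, n = 5) in Trem1-deficient CCl4 mice. Over pooled counts, the WT CCl4 rate was 222 times the oil rate (3880 against 16 counts, 95% exact interval 136 to 388) and the Trem1-deficient rate was 52.8 times the oil rate (1377 against 16 counts, interval 32.4 to 92.6). These intervals cover counting error and not the spread between mice.

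In the fit of all 3 groups, the log2 fold change of Apoa4 was 8.02 ± 0.66 (SE) for WT CCl4 against oil, 5.74 ± 0.62 for Trem1-deficient CCl4 against oil, and -2.28 ± 0.48 for Trem1-deficient against WT CCl4. With index series as a term these values were 6.39 ± 0.81, 4.57 ± 0.60 and -1.82 ± 0.51. Within series 1, where the 2 Trem1-deficient mice (86.2 and 38.95 CPM) can be set against the 5 oil mice, Apoa4 was higher by 4.57 ± 1.06. Within series 2, where 3 Trem1-deficient mice (121, 127 and 334 CPM) can be set against the 5 WT CCl4 mice (416 to 1203 CPM), it differed by -1.81 ± 0.48. Series 1 holds no WT CCl4 mouse and series 2 no oil mouse, so WT CCl4 against oil cannot be seen within a series.

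The 6 other apolipoproteins made mainly by hepatocytes had mean CPM in WT CCl4 mice of 3.57 (Apoa5) to 4.77 (Apoa1) times oil, with none called, and in Trem1-deficient CCl4 mice of 0.510 (Apoc3) to 1.38 (Apoa1) times oil. Apoa1 was at 559, 846, 329, 169 and 254 CPM in oil, at 1347, 2288, 3113, 1373 and 2165 in WT CCl4, and at 155, 70.8, 289, 742 and 1726 in Trem1-deficient mice. Each WT CCl4 mouse was above each oil mouse, while the Trem1-deficient mice spanned both groups, with mouse 5 the highest of them and mouse 2 the lowest. Its log2 fold change was 2.25 for WT CCl4 against oil, and the test did not pass (edgeR quasi-likelihood, Benjamini-Hochberg adjusted p = 0.107). It was -0.77 with index series as a term. The test passed without Trem1-deficient mouse 2 (adjusted p = 0.0416) or mouse 5 (adjusted p = 0.0281), and without mouse 5 so did Trem1-deficient against WT CCl4 (-2.71, adjusted p = 0.0347, against -1.79 and 0.260 with all mice). Apob was at 283 to 1188 CPM in oil (median 762), 1990 to 3990 in WT CCl4 (median 3137) and 116 to 1894 in Trem1-deficient mice (median 239). The WT CCl4 mice stood above both other groups, with log2 fold changes of 2.06 against oil (edgeR adjusted p = 0.130; -0.64 with index series as a term) and of -2.07 for Trem1-deficient against WT CCl4 (edgeR adjusted p = 0.188).

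Apoa2 averaged 148 ± 116, 655 ± 343 and 133 ± 138 CPM (SD, n = 5 each) in oil, WT CCl4 and Trem1-deficient mice. Apoa5, an activator of triglyceride clearance, averaged 57.7 ± 52.0, 206 ± 90.8 and 66.0 ± 60.9 CPM in the same order. For Apoh, a phospholipid-binding plasma protein, the means were 150 ± 93.8, 578 ± 320 and 137 ± 169 CPM. In all 3 genes the ranges of WT CCl4 and of both other groups overlapped, and no comparison passed (edgeR adjusted p of 0.119, 0.123 and 0.126 for WT CCl4 against oil, and 0.137, 0.229 and 0.148 for Trem1-deficient against WT CCl4). Without Trem1-deficient mouse 5, which had the highest hepatocyte marker sum of its group, Apoa2 and Apoh passed both comparisons, with adjusted p of 0.0415 and 0.0143 against oil and changes of -3.13 (0.0197) and -3.20 (0.00161) against WT CCl4. Without oil mouse 2 Apoa5 was at 2.52 for WT CCl4 against oil (adjusted p = 0.0362).

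Apoc3, an inhibitor of triglyceride clearance that lies next to Apoa4 on the other strand, was at 62.0, 338, 51.4, 25.9 and 40.6 CPM in oil, at 59.2, 475, 449, 481 and 729 in WT CCl4, and at 26.1, 15.2, 42.2, 62.9 and 118 in Trem1-deficient mice. Oil mouse 2 and WT CCl4 mouse 1 lay away from their groups, and all 3 groups overlapped. It fell in Trem1-deficient against WT CCl4 mice (log2 fold change -3.06 ± 0.77, edgeR adjusted p = 0.0475). This call is at the edge of the threshold: it was lost in 11 of 15 fits that left out 1 mouse (adjusted p of 0.0561 to 0.136; it was kept without oil mouse 2 or 4, WT CCl4 mouse 1 or Trem1-deficient mouse 5), with index series as a term (-2.56, adjusted p = 0.159) and within series 2 (-2.54, adjusted p = 0.0521). For WT CCl4 against oil its change was 2.09 (edgeR adjusted p = 0.121), and without oil mouse 2 it was 3.29 (adjusted p = 0.00201), or without WT CCl4 mouse 1 it was 2.37 (adjusted p = 0.0314).

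Apoe, the ligand by which remnant particles are taken up, was the most abundant of the 10 and ran the other way. It was at 11128, 9603, 8762, 8294 and 10542 CPM in oil, at 6855, 5907, 5095, 3239 and 5018 in WT CCl4, and at 3593, 5025, 8197, 7542 and 8433 in Trem1-deficient mice. WT CCl4 mice were all below oil mice, and Trem1-deficient mice overlapped both groups, those of series 1 being the lowest. Apoe fell in WT CCl4 against oil (log2 fold change -0.89 ± 0.23, edgeR adjusted p = 0.0189), as it did with index series as a term (-1.79 ± 0.37, adjusted p = 0.0142). The call was lost without oil mouse 1 (adjusted p = 0.0518), without oil mouse 5 (adjusted p = 0.0523) or without WT CCl4 mouse 4 (adjusted p = 0.0586). Apoc1, its small neighbour on chromosome 7, averaged 1613 ± 164, 1059 ± 386 and 1117 ± 248 CPM (SD, n = 5 each), with a change of -0.61 for WT CCl4 against oil (edgeR adjusted p = 0.179), and of -0.84 without WT CCl4 mouse 5 (adjusted p = 0.0417). The Kupffer marker sum was also lower in WT CCl4 mice, and its part in the fall of Apoe was not tested.

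Apoc2, the cofactor of lipoprotein lipase, had 3 counts in all 15 libraries and was not tested. In the annotation it overlaps the read-through gene Gm44805 on the same strand, and how shared reads were counted is not stated in the labels, so this near absence is uncertain.

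Of the 8 other genes tested, 0 rose and 1 fell (Apoe) in WT CCl4 against oil, where 3.04% of all 9001 tested genes were called higher and 2.09% lower. Before adjustment 6 had an edgeR p under 0.05 and were higher (Apoa1, Apoa2, Apoa5, Apob, Apoc3 and Apoh), and 2 were lower (Apoc1 and Apoe). DESeq2 called those 6 higher (adjusted p of 0.00239 to 0.0488). Groups did not overlap for Apoa4, Apoa1 and Apob (higher, as in 3.13% of all genes) and for Apoe (lower, as in 3.44%). For Trem1-deficient against WT CCl4, 0 rose and 1 fell (Apoc3), where 0.778% of genes were called higher and 1.28% lower, and Apoa4 and Apob did not overlap (lower, as in 2.12%). Before adjustment 0 were higher and 6 lower at an edgeR p under 0.05, and DESeq2 called 5 lower (Apoa1, Apoa2, Apob, Apoc3 and Apoh, adjusted p of 2.21e-04 to 0.0274). In Trem1-deficient CCl4 against oil, 0 of the 8 were called either way (0.233% of all genes), with log2 fold changes from -0.97 (Apoc3) to 0.47 (Apoa1), while 2 were lower (Apoc1 and Apoe) at an edgeR p under 0.05 before adjustment and DESeq2 called 0, and Apoa4 alone of the 9 did not overlap (higher, as in 1.63% of all genes). The percentages of genes called are those of edgeR at adjusted p. Shares of all genes at an unadjusted p under 0.05 are not given here, and DESeq2 called more of all genes than edgeR in each comparison. The 3 comparisons share groups of mice in pairs, and Apoa4 was selected on them, so nothing is read from these counts about the genes as a set.

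**Figure D2:**
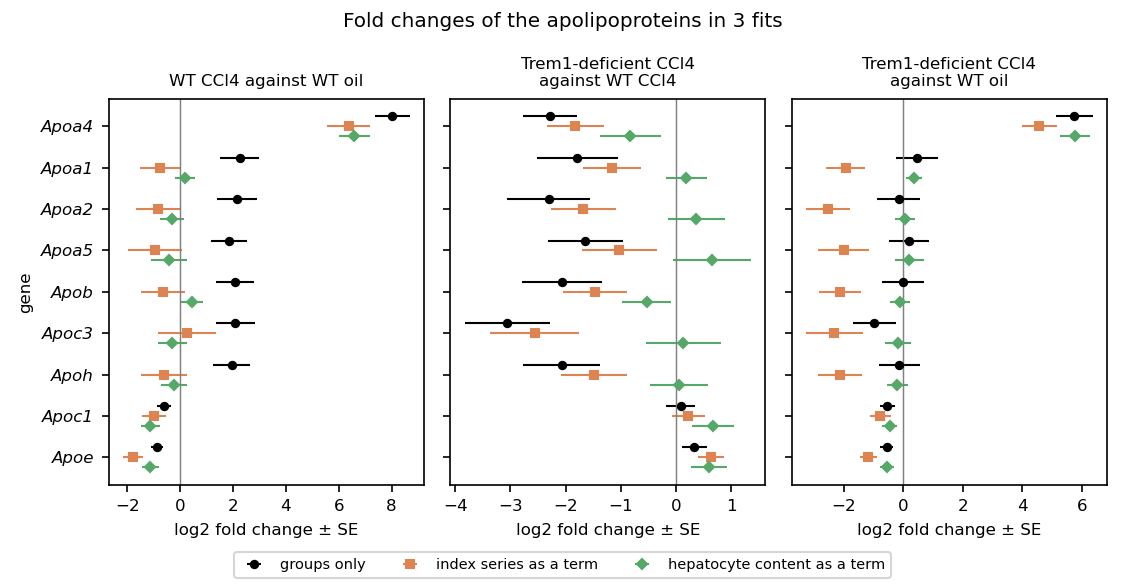
Log2 fold change ± SE of 9 apolipoprotein genes in the 3 comparisons, from fits with the groups only (black), with index series as a term (orange) and with hepatocyte content as a term (green). For Trem1-deficient CCl4 mice against oil, Apoa4 lies at 4.57 to 5.76 in the 3 fits and the other 8 genes lie at 0.47 or lower.

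Adding the index series to the fit turned the direction of 5 of the 6 hepatocyte genes in WT CCl4 against oil. Their changes became -0.77 for Apoa1, -0.83 for Apoa2, -0.96 for Apoa5, -0.64 for Apob and -0.63 for Apoh, and 0.25 for Apoc3, with none called. Within series 1 the Trem1-deficient mice stood against oil at -2.495 (Apoa2) to -1.91 (Apoa1) on the log2 scale for these 6 genes, with edgeR adjusted p of 0.249 to 0.857, at the same time as Apoa4 was 4.57 higher. For Apoe the difference within series 1 was -1.14 ± 0.21 and passed (edgeR adjusted p = 0.0367). Across the Trem1-deficient group the 3 mice of series 2 had means 3.60 to 8.13 times those of the 2 mice of series 1 for the 6 hepatocyte genes, 3.10 times for Apoa4, 1.87 times for Apoe and 1.30 times for Apoc1.

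The hepatocyte markers were tested in the same fits. Of 19 tested, 6 rose and 0 fell in WT CCl4 against oil (median log2 change 2.28), 0 rose and 4 fell in Trem1-deficient against WT CCl4 (median -2.25), and none was called in Trem1-deficient CCl4 against oil (median -0.22). With index series as a term 0 were called for WT CCl4 against oil (median -0.05) and 1 was called lower for Trem1-deficient against WT CCl4 (median -1.70). DESeq2 called 13 higher and 15 lower in those comparisons and 2 higher in Trem1-deficient CCl4 against oil. It also called more of all genes than edgeR in each comparison. Leaving out 1 mouse gave 4 (without oil mouse 1, 3, 4 or 5 or WT CCl4 mouse 3) to 11 (without oil mouse 2) higher. It gave 1 (without Trem1-deficient mouse 1 or 3) to 10 (without WT CCl4 mouse 1) lower, and 9 without Trem1-deficient mouse 5. Over all genes these fits called 302 to 759 for WT CCl4 against oil and 87 to 508 for Trem1-deficient against WT CCl4. Alb (albumin) was at 2.21 (edgeR adjusted p = 0.140), Ttr (transthyretin) at 2.18 (0.123), Ahsg (fetuin A) at 1.71 (0.274) and Fgb (the fibrinogen beta chain) at 3.33 (0.0251) for WT CCl4 against oil. Of 15 Kupffer markers, 13 fell and 0 rose in that comparison (median -2.502), and 12 rose and 0 fell in Trem1-deficient against WT CCl4 (median 2.05), and with index series as a term these counts were 6 and 10.

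To set each apolipoprotein against the hepatocyte transcripts of its own library, its CPM was divided by the hepatocyte marker sum. The make-up of this sum differed between groups. Fgb was 2.66 to 5.23% of it in oil, 5.65 to 27.1% in WT CCl4 and 16.1 to 22.3% in Trem1-deficient mice. Relative to this sum Apoa4 was 0.0122 to 0.105% in oil, 1.58 to 3.87% in WT CCl4 and 1.20 to 3.33% in Trem1-deficient mice. Both CCl4 groups were therefore above the oil group in every mouse, and they overlapped each other. On the log2 scale (of CPM plus 1) the mean ratio differed by 5.61 between WT CCl4 and oil, by 5.57 between Trem1-deficient CCl4 and oil, and by -0.04 between the CCl4 groups, with SDs within groups of 0.53 to 0.92. For the 6 other hepatocyte genes the same differences between groups lay between -0.53 (Apoc3, Trem1-deficient against WT CCl4) and 0.47 (Apoa5, Trem1-deficient CCl4 against oil). Some genes outside the 10 were also set against the sum, and in Trem1-deficient CCl4 against oil each moved by less than Apoa4. Creb3l3 (2.44), Fgb (2.35), Apom (1.34), Clu (1.19), Apof (1.12), Mttp (0.77) and Ahsg (0.08) were higher there. Alb (-0.72), Apoc4 (-0.62) and Ttr (-0.37) were lower. Alb, Ttr, Ahsg and Fgb are themselves part of the sum. Serpina3n and Saa1, the genes whose levels were most like that of Apoa4 (below), were not set against it. Their mean CPM was 2.02 and 9.49 in oil mice, and 122 and 483 in Trem1-deficient CCl4 mice. Apoa1 was at 4.60 to 7.28%, 5.35 to 10.6% and 4.05 to 10.8% of the sum in oil, WT CCl4 and Trem1-deficient mice, and Apoh at 1.30 to 2.74%, 1.18 to 2.24% and 0.969 to 2.71%.

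Over all 15 libraries the SD of this log2 ratio was 2.80 for Apoa4, 0.40 to 0.72 for the 6 hepatocyte genes, 1.55 for Apoc1 and 1.65 for Apoe. Among the 19 tested hepatocyte markers themselves it ran from 0.32 to 2.36 with a median of 0.66. Apoe ranged from 52.8 to 288% of the sum in Trem1-deficient mice and from 53.5 to 226% in oil, but from 12.1 to 53.8% in WT CCl4 mice, so its level did not follow the hepatocyte markers. With hepatocyte content as a term in the fit, Apoa4 changed by 6.59 ± 0.58 in WT CCl4 and by 5.76 ± 0.50 in Trem1-deficient CCl4 against oil, and by -0.83 ± 0.56 between the CCl4 groups, where the difference is thus smaller than without that term. The 6 hepatocyte genes then lay between -0.44 and 0.43 for WT CCl4 against oil and between -0.54 and 0.65 for Trem1-deficient against WT CCl4, and Apoe was at -1.13 ± 0.31 (edgeR adjusted p = 0.0585) for WT CCl4 against oil.

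**Figure D3:**
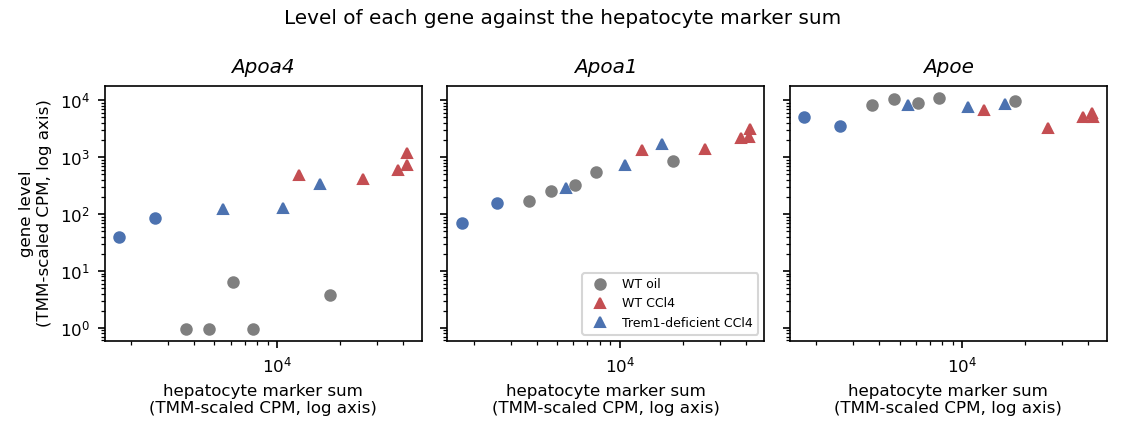
TMM-scaled CPM of Apoa4, Apoa1 and Apoe against the sum of 20 hepatocyte markers in each of the 15 libraries (both axes log; colours are groups, circles index series 1, triangles series 2). Apoa1 lies along 1 line in all groups, Apoa4 of the oil mice lies below the CCl4 mice at like sums, and Apoe shows no such line.

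A ratio of reads within a library needs no scaling between libraries. For each 100 Apoa1 reads, the oil mice 1 to 5 had 0.168, 0.444, 1.95, 0.568 and 0.376 Apoa4 reads, the WT CCl4 mice had 36.6, 31.6, 38.6, 30.3 and 27.7, and the Trem1-deficient mice had 55.5, 55.0, 41.9, 17.2 and 19.3. The WT CCl4 mice lay close together, and the Trem1-deficient mice lay on both sides of them. The closest pair across the gap was oil mouse 3, where Apoa4 was 1.91% of the reads of both genes (95% Wilson interval 1.01 to 3.60%), and Trem1-deficient mouse 4, where it was 14.6% (12.7 to 16.9%). Against Apoc3 reads the medians were 2.35, 152 and 284 per 100 in oil, WT CCl4 and Trem1-deficient mice, and against Alb reads 0.106, 7.04 and 18.5. Against Fgb, an acute-phase protein of hepatocytes, they were 0.697, 16.6 and 12.1 per 100.

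**Figure D4:**
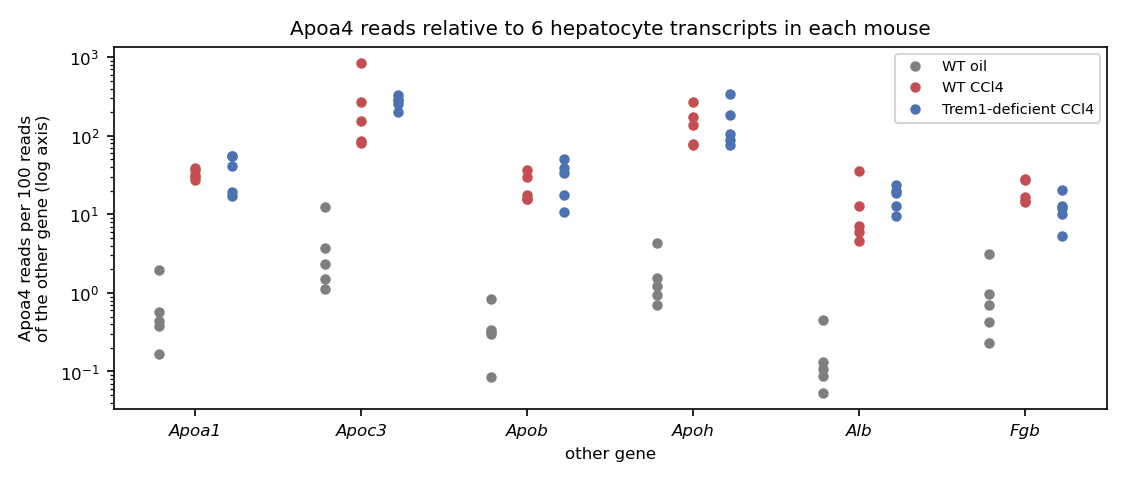
Apoa4 reads per 100 reads of each of 6 hepatocyte transcripts in the same library (log axis), 1 point per mouse, by group. For each of the 6 genes the oil mice lie below all mice given CCl4, and the 2 CCl4 groups overlap.

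Apoa4 also stood apart from its neighbours on chromosome 9. The end of Apoc3 is 5.06 kb from Apoa4 and Apoa5 begins 25.17 kb beyond it. In Trem1-deficient CCl4 mice against oil, the ratio of mean CPM was 54.2 for Apoa4 but 1.38 for Apoa1, 0.510 for Apoc3 and 1.14 for Apoa5. In annotation, Apoa4 overlaps the minus-strand genes Gm47528 and Gm10680, and Apoa5 overlaps the minus-strand gene Gm47544; no label states whether counting used strand, and reads of these partners then cannot be separated from their own.

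**Figure D5:**
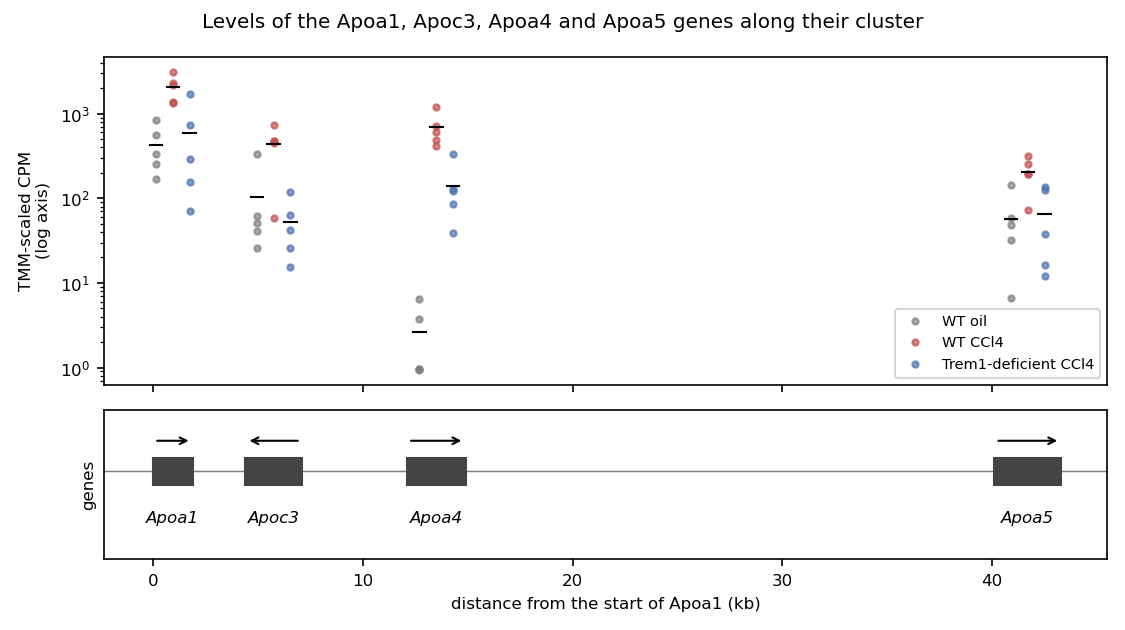
Upper panel: TMM-scaled CPM (log axis) of the 4 genes of the chromosome 9 cluster in each mouse, by group, drawn side by side around the middle of each gene; black lines are means. Lower panel: the genes to scale by distance from the start of Apoa1, with arrows in the direction of transcription; Apoa4 has the lowest oil values of the 4 genes.

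Intestinal epithelium is the other known source of Apoa4. Of its 6 markers in the table, 5 were at 0 in all oil libraries and 5 in all WT CCl4 libraries (Vil1, Alpi, Lct, Cdx2 and Cdx1), and 4 were at 0 in all Trem1-deficient libraries. Their summed level had a median of 0 CPM in each group and reached 61.1 CPM in 1 WT CCl4 library.

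The other genes of lipoprotein metabolism were taken from lists by role, and leaving out 1 mouse moved their small counts. For WT CCl4 against oil such fits called 2 to 4 other apolipoproteins, 4 to 5 assembly genes and 1 to 3 CREB3L3 or PPAR alpha targets higher. For Trem1-deficient against WT CCl4 they called 0 to 3, 0 to 2 and 0 to 2 of the same lists lower. Of 7 other apolipoprotein genes tested, 2 rose in WT CCl4 against oil: Clu (clusterin) by 2.71 ± 0.49 on the log2 scale (edgeR adjusted p = 6.71e-04) and Apom by 3.34 ± 0.79 (adjusted p = 0.00939). The same genes fell in Trem1-deficient against WT CCl4 mice (-1.84 ± 0.47 and -2.83 ± 0.77, adjusted p = 0.0348 and 0.0452), and neither fall passed with index series as a term (-1.39 and -2.42, adjusted p = 0.251 and 0.270) or within series 2 (0.308 and 0.206). Apof (2.64, adjusted p = 0.0719) and Apoc4 (2.40, adjusted p = 0.107) did not pass. The median log2 change of the list was 2.40 beside 0.06 over all tested genes (which had -0.03 for Trem1-deficient against WT CCl4 and 0.02 for Trem1-deficient CCl4 against oil), and with index series as a term it was -0.51 with 0 called. The ranges of Clu in oil (21.02 to 104 CPM) and in Trem1-deficient CCl4 mice (43.8 to 191 CPM) overlapped, unlike those of Apoa4.

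Among 11 genes of lipoprotein assembly and lipid droplets, 5 rose and 0 fell in WT CCl4 against oil (median 1.64). P4hb, the smaller subunit of the triglyceride transfer complex and a chaperone, rose by 1.71 ± 0.29 (edgeR adjusted p = 2.33e-04), and Plin2, a lipid droplet coat protein, by 1.84 ± 0.36 (adjusted p = 0.00158). Mttp, the larger subunit that loads lipid onto Apob, rose by 2.81 ± 0.70 (adjusted p = 0.0142), from 3.76 to 34.6 CPM in oil to 80.2 to 195 CPM. Mia2, a protein of secretory export sites, rose by 6.12 ± 1.53 (adjusted p = 0.0127), although 1 WT CCl4 library had none. With index series as a term 0 of the 11 were called, and Mttp was at -0.09 ± 1.06. In Trem1-deficient against WT CCl4 mice 1 fell, P4hb (-1.07, adjusted p = 0.0416), and it did not pass with index series as a term (adjusted p = 0.308).

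Of 14 receptors and uptake genes, 1 rose and 1 fell in WT CCl4 against oil (median -0.15). Sdc1, a proteoglycan that binds remnants, rose by 3.42 ± 0.87 (edgeR adjusted p = 0.0165), and Lrp1, a receptor for Apoe, fell (-1.05 ± 0.26, adjusted p = 0.0128). Neither passed with index series as a term (Sdc1 1.65, adjusted p = 0.9999, and Lrp1 -1.72, adjusted p = 0.0893). In Trem1-deficient against WT CCl4 mice Lrp1 rose by 1.12 ± 0.26 (adjusted p = 0.0171). It was called with index series as a term (adjusted p = 0.0112) and not within series 2 (adjusted p = 0.0762). Of 12 lipases and remodelling genes, 1 fell in WT CCl4 against oil (median -0.05) and 2 rose in Trem1-deficient against WT CCl4 (median -0.61). Lipa, the lysosomal lipase, fell in WT CCl4 (-1.38 ± 0.36, adjusted p = 0.0182), and Lpl, lipoprotein lipase, was higher in Trem1-deficient than in WT CCl4 mice by 1.57 ± 0.27 (adjusted p = 0.00116), as was Lipa (1.33 ± 0.35, adjusted p = 0.0429). Lipa passed neither comparison with index series as a term (-2.02, adjusted p = 0.273, and 1.56, adjusted p = 0.0536), nor the second within series 2 (adjusted p = 0.197). Lpl was at 529 to 744 CPM in oil, 336 to 562 in WT CCl4 and 793 to 1723 in Trem1-deficient mice, and its call held with index series as a term (adjusted p = 0.00121) and within series 2 (1.78, adjusted p = 0.0208).

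Among 12 liver transcription regulators 1 rose and 2 fell in WT CCl4 against oil (median 0.94), and 1 rose and 1 fell in Trem1-deficient against WT CCl4 (median -1.09). Creb3l3, which encodes the factor known to act on Apoa4, had 15, 11, 18, 0 and 23 counts in oil mice, 216, 107, 160, 210 and 107 in WT CCl4 mice and 37, 44, 206, 33 and 158 in Trem1-deficient mice. It rose by 3.69 ± 0.76 in WT CCl4 (edgeR adjusted p = 0.00262), while in Trem1-deficient CCl4 against oil it was at 2.18 ± 0.72 (adjusted p = 0.438). With index series as a term these were 1.34 ± 1.13 and 0.40 ± 0.85 (adjusted p = 0.9999 and 1.0). Trem1-deficient mice 1 and 2 had 12.4 and 14.9 CPM of Creb3l3, where oil mice had 0 to 14.1 CPM, beside 86.2 and 38.95 CPM of Apoa4. As a share of the hepatocyte marker sum, Creb3l3 was at 0.478 and 0.853% in those mice and at 0 to 0.234% in oil mice. The part of Creb3l3 in the level of Apoa4 was not tested. Nr1h3 (liver X receptor alpha, which is also a Kupffer cell regulator) fell in WT CCl4 (-2.12 ± 0.50, adjusted p = 0.0143), as did its partner Rxra (-1.43 ± 0.40, adjusted p = 0.0321), and with index series as a term neither passed (-2.40 and -1.76, adjusted p = 0.492 and 0.568). In Trem1-deficient against WT CCl4 mice Nr1h3 was higher by 1.95 ± 0.50 and Hnf4a, which activates many apolipoprotein genes, lower (-3.67 ± 1.00), with adjusted p = 0.0451 for both; neither passed with index series as a term (0.0828 and 0.171).

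Of 13 genes that CREB3L3 or PPAR alpha are known to activate, 2 rose in WT CCl4 against oil (median 0.93), Fabp4 (2.35 ± 0.57, edgeR adjusted p = 0.0119) and Insig2 (2.10 ± 0.62, adjusted p = 0.0448). Fabp4 is also made by macrophages and endothelium. None of the 13 was called with index series as a term (Fabp4 2.29, adjusted p = 0.606, and Insig2 0.96, adjusted p = 0.9999). In Trem1-deficient against WT CCl4 mice 1 fell, Fabp1, the fatty acid binder of hepatocytes (-3.18 ± 0.69, adjusted p = 0.0200), which passed within series 2 (-2.81, adjusted p = 0.0361) and not with index series as a term (-2.83, adjusted p = 0.101). In Trem1-deficient CCl4 against oil none of the 13 was called, where 0.233% of all tested genes were. Their median there was -0.26, beside -0.22 for the hepatocyte markers, and the activity of these factors was not tested. Of 11 genes that the liver X receptor activates in macrophages, 2 fell in WT CCl4 (Cd5l at -2.502 ± 0.34, adjusted p = 1.19e-04, and Nr1h3; median -0.53) and Abca1, the exporter that loads Apoa1 with cholesterol, was at -0.07 ± 0.43 (adjusted p = 0.960). None of the 11 fell there with index series as a term (Cd5l -2.58, adjusted p = 0.0640). In Trem1-deficient against WT CCl4 mice 3 rose (Cd5l, Lpl and Nr1h3), and Scd1, a desaturase, fell (-3.07 ± 0.45, adjusted p = 4.73e-04). With index series as a term Cd5l, Lpl and Scd1 passed there (adjusted p = 0.00108, 0.00121 and 0.00534) and Nr1h3 did not.

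Genes whose level most resembled that of Apoa4 were found by Pearson's r of log2(CPM + 1) over the 15 libraries, among 7841 other genes with a mean of at least 10 CPM. The 8 highest were Serpina3n (0.96), Saa1 (0.94), Hspd1 (0.94), Srxn1 (0.94), Hp (0.93), Cd63 (0.93), Hspb1 (0.92) and Hspa5 (0.91). Serpina3n, Saa1 and Hp encode acute-phase plasma proteins, Hspd1, Hspb1 and Hspa5 encode chaperones, Srxn1 an enzyme of peroxide defence and Cd63 a lysosomal membrane protein. With group means removed their r ran from 0.16 (Cd63) to 0.71 (Hp). These points share libraries and the 3 groups, so r describes the likeness and carries no test. The apolipoproteins came much lower in that order: Apoa1 was at rank 317 (r = 0.64), Apoa5 at 375, Apob at 474, Apoa2 at 567, Apoc3 at 582 and Apoh at 616, with Apoc1 (r = -0.58) and Apoe (r = -0.65) near its end. Creb3l3 was at rank 31 (r = 0.86) and Fgb at rank 19 (r = 0.88). Within groups the order was different, for with group means removed Apoa1 had r = 0.77 and Apoh r = 0.73. Serpina3n was at 0 to 4.30 CPM in oil, 158 to 773 in WT CCl4 and 19.0 to 269 in Trem1-deficient mice, and Saa1 at 0 to 32.6, 392 to 5539 and 65.0 to 998 CPM. Like Apoa4, both were higher in each CCl4 mouse than in each oil mouse.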

How the data were processed

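RNA of isolated Kupffer cells from 15 mice was made into 3' tag libraries (Lexogen QuantSeq), per the labels' protocols, in which each transcript gives reads at its 3' end and no length correction is needed. The authors deposited 1 table of unscaled read counts, genes by mice. The submitters' processing notes name the build mm10 and the tools STAR 2.5.1a, Trimmomatic and Partek 6.6, and no label names the annotation or strand setting. The 60 label entries are 4 lanes of each mouse, and each mouse has 1 column; 4 tallies of unassigned reads were kept out, so that genes took 12.6 to 28.8% of the reads of a library. No molecular identifiers are named, so intervals cover counting error only.

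The test was that of edgeR 4.0.16 under R 4.3.3 (TMM, filterByExpr by group, robust quasi-likelihood F-test, 1 fit of 3 groups, 12 residual degrees of freedom, Benjamini-Hochberg adjusted p under 0.05 over 9001 genes), after the script was tested on simulated data. In each of 30 pairs of libraries within a group, counts differed beyond sampling noise (the lowest chi-square was 10.2 times its degrees of freedom), and all 15 were kept. P-values measure the spread between mice. Named were all 10 apolipoproteins, Trem1, up to 4 tested genes of each list with the smallest p in any comparison plus Creb3l3, Mttp, Lpl and Abca1, the hepatocyte genes Alb, Ttr, Ahsg and Fgb, and the 8 genes most like Apoa4; 1 gene under this rule is not reported here. The members and lists were chosen with earlier results of these data known. Alternatives were RLE scaling, library totals, DESeq2 1.42.0, no filter, 2 groups at a time, a replicate block, hepatocyte content or index series as a term, 1 index series, and each mouse left out; the counts by list under these were added after the data were seen. The hepatocyte term is the mean log2 CPM of the hepatocyte markers, Fgb among them, in each library.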

Additional observations from a re-analysis of the deposited data

Results flagged for a closer look

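In each group of 5 mice the gap of the highest and of the lowest mouse to the next was set against the range of the group for the 9 tested apolipoproteins (27 groups of values, of which about 1 in 20 would be marked by chance), and 2 exceeded Dixon's 95% critical value of 0.71. Oil mouse 2 had 338 CPM of Apoc3, where the next oil mouse had 62.0. Trem1-deficient mouse 5 had 433 CPM of Apoh, where the next had 119. Both mice also had the highest hepatocyte marker sum of their group (17940 and 15981 CPM), and its part in these values was not tested. The share of Apoc3 in that sum was 1.88% in oil mouse 2 and 0.705 to 0.865% in the other oil mice, while Apoh was at 2.71% in Trem1-deficient mouse 5 and at 0.969 to 2.52% in the others.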

How the results depend on the processing

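The direction of Apoa4 was the same in all 23 or 24 alternatives of each comparison: 6.39 to 8.78 for WT CCl4 against oil, 4.57 to 6.50 for Trem1-deficient CCl4 against oil and -2.88 to -0.83 for Trem1-deficient against WT CCl4. Apoa4 was chosen on these same counts, so these values describe the fits and are no test of its direction. The fall of Apoc3 in Trem1-deficient against WT CCl4 mice became 0.13 with hepatocyte content as a term. The fits called 462, 185 and 21 genes for WT CCl4 against oil, Trem1-deficient against WT CCl4 and Trem1-deficient CCl4 against oil; in that order DESeq2 called 1015, 608 and 75, no filter on low counts gave 813, 563 and 73, hepatocyte content as a term 132, 11 and 45, and index series as a term 37, 77 and 11. Within index series 2 Trem1-deficient against WT CCl4 gave 57. Leaving out 1 mouse gave 302 to 759, 87 to 508 and 12 to 31, and the cause of these differences was not tested. Scaling by library totals shifted the median log2 change of all genes to -0.13, 0.26 and 0.11, and changed the split of genes higher and lower from 274 and 188 to 218 and 314, and from 70 and 115 to 211 and 95 (306 in all). Mouse numbers were shared between groups, but the deviations of same-numbered mice correlated at -0.06 to 0.04, so the numbers do not pair the mice; with the mouse number as a replicate block the counts were 365, 158 and 21, and Apoc3 was at -2.89 (adjusted p = 0.0697). Leaving Alb out of the hepatocyte sum moved no ratio of a member by more than the spread within groups. Depth limits Apoa4 in oil mice, where 4 of 5 libraries had 3 counts or fewer, and Apoc2 throughout.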
